A study of Mus musculus with 24 samples.

Results

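The transcripts of 9 genes known from the response to glucocorticoid hormone and to fasting were followed through the duodenum of Cyp27b1-null mice: Fkbp5, Tsc22d3, Sgk1, Zbtb16, Klf9, Klf15, Pdk4, Angptl4 and Ddit4. They were taken by gene symbol from tables of RPKM (reads scaled to the length of a feature and to the size of the library), entries with the same symbol being summed, and make up 9 of 25410 symbols. Tsc22d3 was the sum of 2 entries and Sgk1 of 6, and the other 7 genes had 1 entry each. No gene of the set was listed at 0 in any library, and all 9 passed the filter on low values (0.5 RPKM or more in at least 6 of 24 libraries) that left 20006 genes for testing.

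All mice were male and lacked Cyp27b1, the enzyme that makes the hormone 1,25-dihydroxyvitamin D3 (1,25D), so no group has hormone of its own making and there is no wild-type control. They were weaned at 3 weeks onto a diet without vitamin D and were studied at 8 weeks of age. The rescue diet held 2% calcium, 1.25% phosphorus and 20% lactose, and the normal diet held 0.47% calcium and 0.3% phosphorus. Duodena were taken 6 h after an injection of 1,25D (2 ng per g body weight) or of vehicle. The 4 groups were rescue diet with 1,25D, rescue diet with vehicle, normal diet with 1,25D and normal diet with vehicle, with 6 libraries each. The labels do not tie libraries to animals and give no record of feeding state, time of day or handling, so p-values measure the spread between libraries. In whole duodenum, fewer cells of a type and less RNA per cell cannot be told apart.

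Glucocorticoid hormone binds the glucocorticoid receptor (Nr3c1), a transcription factor that is held in the cytoplasm by chaperones, moves to the nucleus and binds a paired motif in DNA. Fkbp5, Tsc22d3, Sgk1, Zbtb16, Klf9 and Ddit4 are among its best known direct targets in many tissues. Fasting raises corticosterone in mice and also frees fatty acids, which activate PPAR receptors. Pdk4 and Angptl4 are known targets of PPAR receptors as well as of the glucocorticoid receptor, and Klf15 is known in mouse liver and muscle for switching on amino acid breakdown in fasting. The intestine both responds to corticosterone from the adrenal and makes some itself.

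As a check of the libraries, Cyp24a1, the enzyme that breaks down 1,25D and a standard target of its receptor, was at 92.1 to 962 RPKM in rescue 1,25D libraries, against 0.016 to 0.712 RPKM in rescue vehicle libraries. It was at 509 to 1036 RPKM in normal 1,25D libraries, against 0.131 to 4.03 RPKM in normal vehicle libraries. Cyp27b1 was at 0.452 RPKM or less in every library, which is no check of the genotype, as there is no wild-type group. The tables hold no read totals, and relative depth, read from the smallest increments among low values, differed 2.76-fold between the deepest and the shallowest library. Markers of duodenal enterocytes summed to 2141 to 11547 RPKM and those of smooth muscle to 142 to 895 RPKM. The 20 markers of exocrine pancreas, which lies against the duodenum, included Zg16, which intestinal goblet cells also make and which was at 229 RPKM or more in every library. The other 19 ran from 0.0052% to 16.2% of all RPKM.

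Fkbp5 encodes a chaperone partner that lowers the affinity of the glucocorticoid receptor for hormone and is itself induced by it. Its level had a lowest, median and highest value of 6.43, 13.6 and 148 RPKM in rescue 1,25D libraries, 10.9, 65.6 and 183 RPKM in rescue vehicle libraries, 25.1, 74.9 and 160 RPKM in normal 1,25D libraries, and 19.8, 58.8 and 133 RPKM in normal vehicle libraries. All 4 groups overlapped in their upper part, while the 6 lowest of the 24 values were all from rescue diet libraries, 4 with 1,25D and 2 with vehicle, below the lowest normal diet library at 19.8 RPKM. In the rescue vehicle group 3 libraries lay at 111, 173 and 183 RPKM and the other 3 at 10.9, 11.4 and 20.4 RPKM. In the rescue 1,25D group replicate 6 was at 148 RPKM and replicate 4 at 73.1 RPKM, while the other 4 libraries were between 6.43 and 17.1 RPKM.

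**Figure D1:**
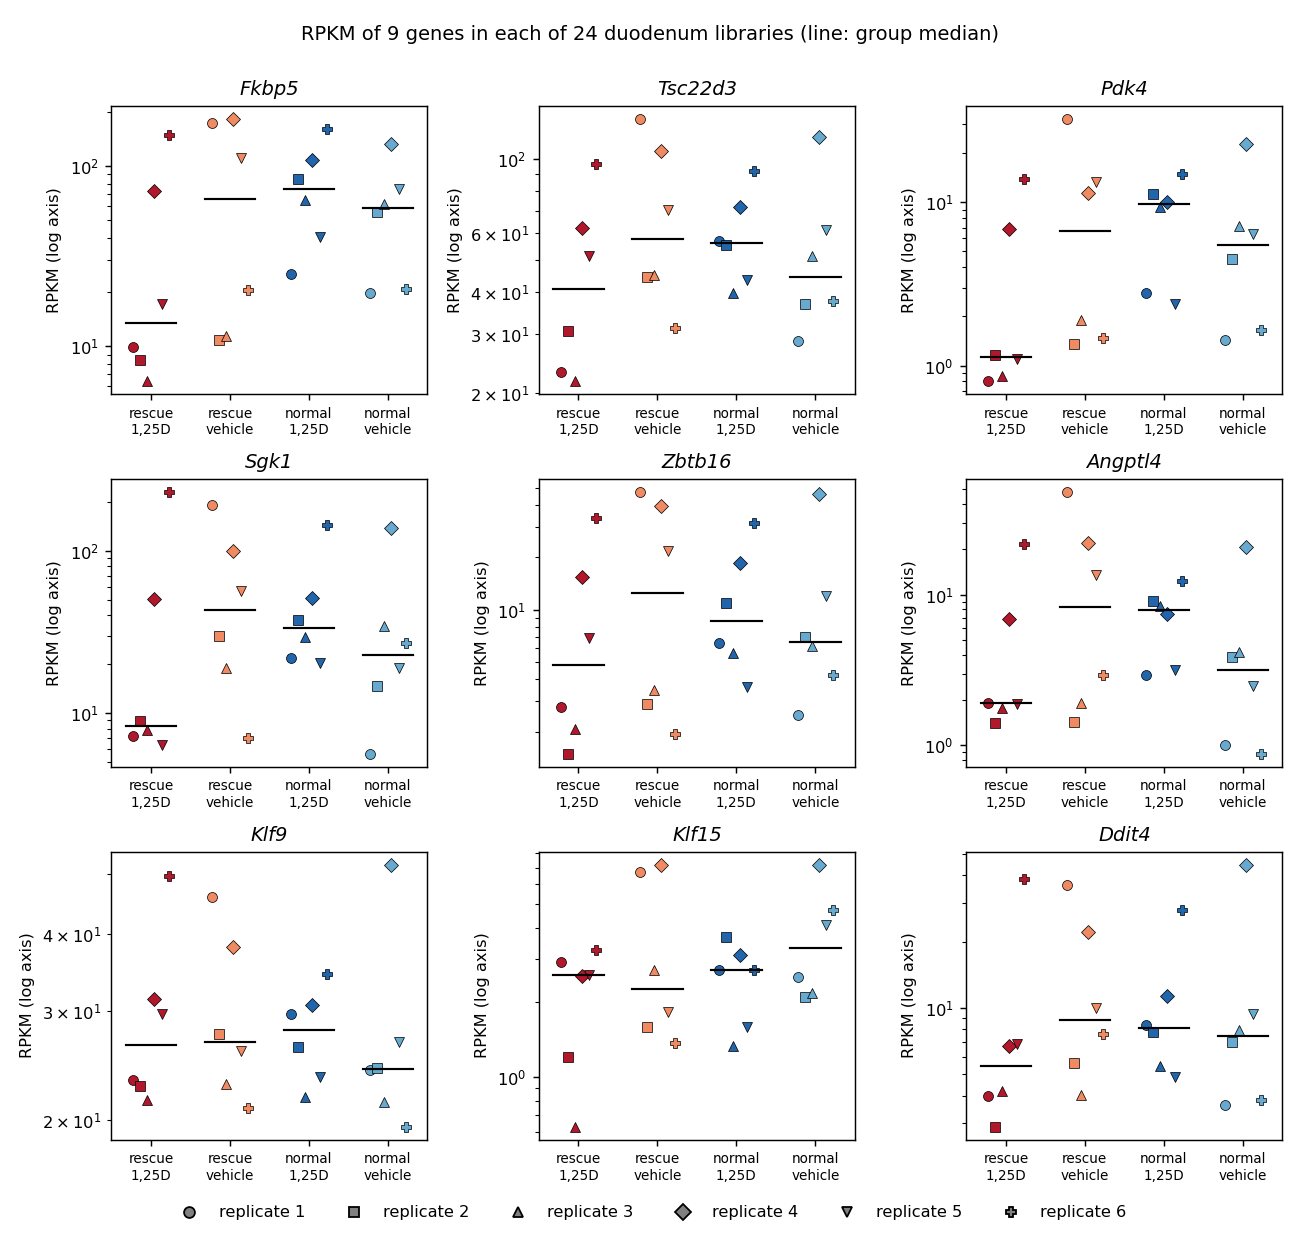
RPKM on a log axis for the 9 genes, 1 panel each, by group. Each symbol is 1 library, its shape giving the replicate number, and lines are group medians. Replicate 6 of rescue 1,25D and replicate 4 of normal vehicle are the highest of their group in all 9 panels, and the groups overlap in every panel.

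Tsc22d3, also called GILZ, encodes a leucine zipper protein that carries part of the anti-inflammatory action of glucocorticoids. It was the most abundant transcript of the set by the median over all libraries after Fkbp5, at 21.7, 40.8 and 96.3 RPKM (lowest, median and highest) in rescue 1,25D libraries, 31.1, 57.6 and 132 RPKM in rescue vehicle libraries, 39.6, 55.9 and 92.1 RPKM in normal 1,25D libraries, and 28.5, 44.4 and 116 RPKM in normal vehicle libraries. The highest of all 24 libraries was 6.07 times the lowest, a narrower span than the 28.5-fold of Fkbp5.

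Sgk1 encodes a kinase that is induced by glucocorticoid and mineralocorticoid hormones and raises sodium uptake by epithelia. It was at 6.35, 8.34 and 231 RPKM in rescue 1,25D libraries, 7.02, 42.9 and 191 RPKM in rescue vehicle libraries, 20.3, 33.4 and 143 RPKM in normal 1,25D libraries, and 5.61, 22.9 and 137 RPKM in normal vehicle libraries. Within rescue 1,25D the highest library was 36.3 times the lowest. Replicates 1, 2, 3 and 5 of that group lay between 6.35 and 8.86 RPKM, replicate 4 at 50.1 RPKM and replicate 6 at 231 RPKM.

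Zbtb16, also called PLZF, encodes a zinc finger repressor of transcription. It was at 1.496, 4.85 and 33.5 RPKM in rescue 1,25D libraries, 1.95, 12.5 and 47.5 RPKM in rescue vehicle libraries, 3.61, 8.64 and 31.3 RPKM in normal 1,25D libraries, and 2.48, 6.56 and 46.1 RPKM in normal vehicle libraries. Replicates 1, 4 and 5 of the rescue vehicle group, the 3 that stood high in Fkbp5, had 47.5, 39.3 and 21.6 RPKM of Zbtb16, and the other 3 libraries of that group were at 3.49 RPKM or less.

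Klf9 and Klf15 encode Kruppel-like transcription factors. Klf9 had the narrowest range, with 21.5, 26.4 and 49.6 RPKM in rescue 1,25D libraries, 20.9, 26.7 and 45.9 RPKM in rescue vehicle libraries, 21.7, 27.9 and 34.5 RPKM in normal 1,25D libraries, and 19.5, 24.1 and 51.7 RPKM in normal vehicle libraries. Klf15 had the lowest median over all 24 libraries, 2.64 RPKM, though not in every group: Pdk4 and Angptl4 had lower medians in rescue 1,25D, and Angptl4 in normal vehicle. It was at 0.629, 2.57 and 3.26 RPKM in rescue 1,25D libraries, 1.37, 2.26 and 7.193 RPKM in rescue vehicle libraries, 1.33, 2.70 and 3.68 RPKM in normal 1,25D libraries, and 2.10, 3.32 and 7.197 RPKM in normal vehicle libraries. Over all 24 libraries the highest value was 2.66 times the lowest for Klf9 and 11.4 times for Klf15.

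Pdk4 encodes a kinase that switches off the pyruvate dehydrogenase complex and so spares glucose. It was at 0.806, 1.13 and 13.8 RPKM in rescue 1,25D libraries, 1.35, 6.68 and 32.4 RPKM in rescue vehicle libraries, 2.39, 9.70 and 14.9 RPKM in normal 1,25D libraries, and 1.43, 5.44 and 22.6 RPKM in normal vehicle libraries. Angptl4 encodes a secreted inhibitor of lipoprotein lipase. It was at 1.40, 1.90 and 21.8 RPKM in rescue 1,25D libraries, 1.42, 8.26 and 48.2 RPKM in rescue vehicle libraries, 2.94, 7.97 and 12.3 RPKM in normal 1,25D libraries, and 0.881, 3.17 and 20.9 RPKM in normal vehicle libraries. Angptl4 had the widest span over all libraries, 54.8-fold, and Pdk4 spanned 40.3-fold. For both genes 4 of the 6 rescue 1,25D libraries lay below 2 RPKM, and replicates 4 and 6 stood above them.

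Ddit4, also called REDD1, encodes an inhibitor of the growth kinase mTORC1. It was at 2.90, 5.47 and 38.5 RPKM in rescue 1,25D libraries, 4.03, 8.83 and 36.1 RPKM in rescue vehicle libraries, 4.89, 8.10 and 27.7 RPKM in normal 1,25D libraries, and 3.63, 7.49 and 44.6 RPKM in normal vehicle libraries. A single library stood well above the rest in rescue 1,25D (replicate 6), in normal 1,25D (replicate 6) and in normal vehicle (replicate 4).

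The same few libraries were highest in nearly all members. Replicate 6 of rescue 1,25D was the highest of its group in 9 of 9 genes, replicate 1 of rescue vehicle in 7, replicate 6 of normal 1,25D in 8 and replicate 4 of normal vehicle in 9, so these 4 libraries held 33 of 36 group maxima. The exceptions were Fkbp5 and Klf15 in rescue vehicle, highest in replicate 4, and Klf15 in normal 1,25D, highest in replicate 2. At the other end, no member was above its group's median in replicate 3 of rescue 1,25D, replicate 6 of rescue vehicle, replicate 5 of normal 1,25D or replicate 1 of normal vehicle.

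**Figure D2:**
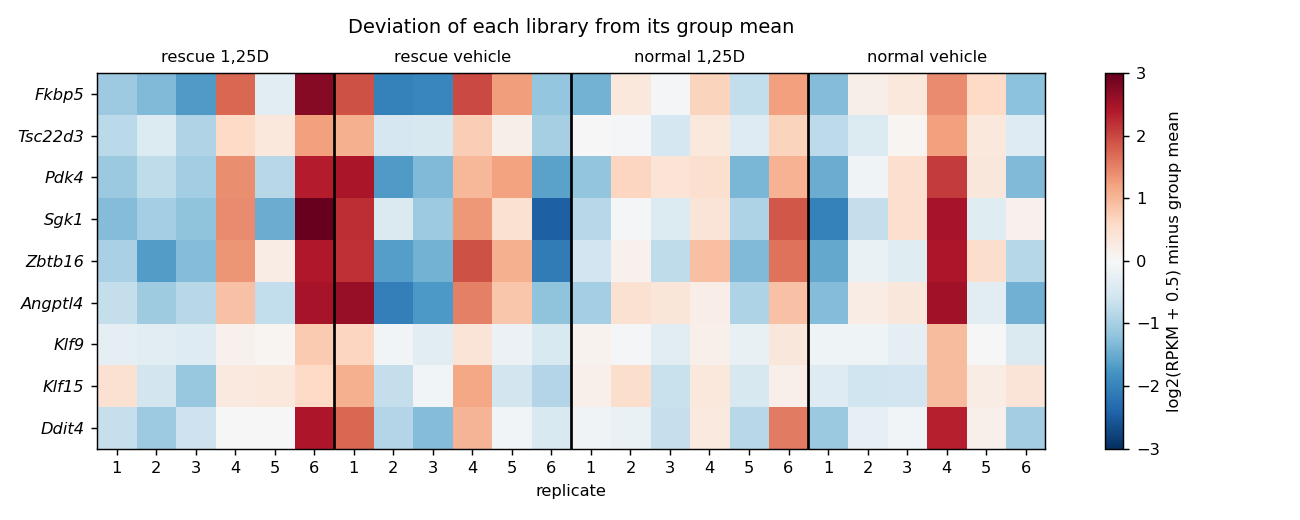
Each cell is log2(RPKM + 0.5) of 1 gene in 1 library minus the mean of that library's group, red above and blue below, for 9 genes (rows) and 24 libraries (columns, by group). Columns tend to be of 1 colour from top to bottom, such as replicate 6 of rescue 1,25D and replicate 6 of rescue vehicle, and the rows of Klf9 and Klf15 are the palest.

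Spread between libraries of a group was set against that of all genes as the residual SD of log2(RPKM + 0.5), with 20 residual degrees of freedom. Its median over 20006 genes was 0.35. It was 1.61 for Sgk1, 1.54 for Zbtb16, 1.503 for Fkbp5, 1.44 for Angptl4, 1.43 for Pdk4 and 1.14 for Ddit4, and each of these 6 genes was above the 99th percentile of all genes, with Sgk1 at rank 45 from the top. Tsc22d3 (0.72, 89.1st percentile), Klf15 (0.69, 87.7th percentile) and Klf9 (0.42, 63.2nd percentile) were less variable. Low transcripts vary more on this scale, so each gene was also ranked among genes within 0.5 log2 units of its own mean level. There Tsc22d3 was at the 96.4th percentile of 954 genes, Klf9 at the 87.8th of 1749 and Klf15 at the 82.5th of 3177.

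**Figure D3:**
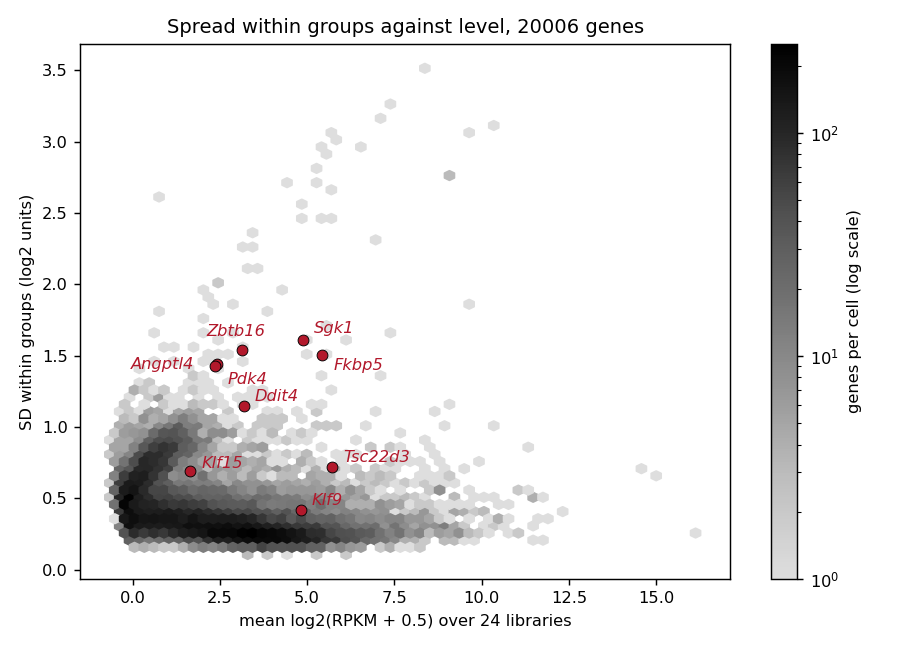
Residual SD within groups (log2 units) against mean log2(RPKM + 0.5) for 20006 genes, grey cells being darker where more genes fall, with the 9 genes as red points. Sgk1, Zbtb16, Fkbp5, Angptl4, Pdk4 and Ddit4, with SDs of 1.14 to 1.61, lie above nearly all genes of their level, and Klf9 (0.42) lies inside the main cloud. Genes of wider spread than Sgk1 number 44 and include 16 of the 20 exocrine pancreas markers.

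Whether the spread itself differed with diet or injection was tested on the distance of each library from its group median, with permutation tests adjusted over 18 tests. None passed. Fkbp5 came nearest, with a mean distance of 1.54 log2 units in rescue libraries and 0.76 in normal diet libraries (n = 12 each, p = 0.0214, adjusted p = 0.385). The difference was in this direction for all 9 genes, which vary together over the same libraries and so are not 9 separate observations.

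Members varied together from library to library once group means were removed. All 36 pairs had a positive correlation and passed a permutation test within groups (Benjamini-Hochberg over 36 pairs, n = 24 libraries), by Pearson's r and by Spearman's rho. The median r was 0.867, and 26 of 36 pairs were above 0.8. These pairs share genes, libraries and the same few high libraries, so they are not 36 separate observations. Pairs drawn from all genes were not tested, so no share over all genes stands beside this count. Pdk4 and Angptl4 were the closest pair (r = 0.968, rho = 0.9504, p = 1e-05, the smallest the permutations can give, and r = 0.954 without the 2 libraries farthest from the median of Pdk4). Fkbp5 and Pdk4 had r = 0.945 and rho = 0.892 (p = 1e-05 for each, and r = 0.931 without the 2 farthest libraries).

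Within single groups of 6 libraries all 36 correlations were positive as well, with a median r of 0.900 in rescue 1,25D, 0.888 in rescue vehicle, 0.732 in normal 1,25D and 0.869 in normal vehicle. Zbtb16 had the highest median r with the other 8 genes, 0.910, and Klf15 the lowest, 0.635. The weakest pair was Pdk4 and Klf15 (r = 0.576, rho = 0.519, p = 0.0131, r = 0.464 without the 2 farthest libraries). Without the library of each group that was highest in most members, all 36 correlations stayed positive, the median r was 0.758, and 28 pairs passed. The 8 that did not pass were 5 of the 8 pairs of Klf15 and the pairs of Klf9 with Pdk4, Sgk1 and Angptl4.

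**Figure D4:**
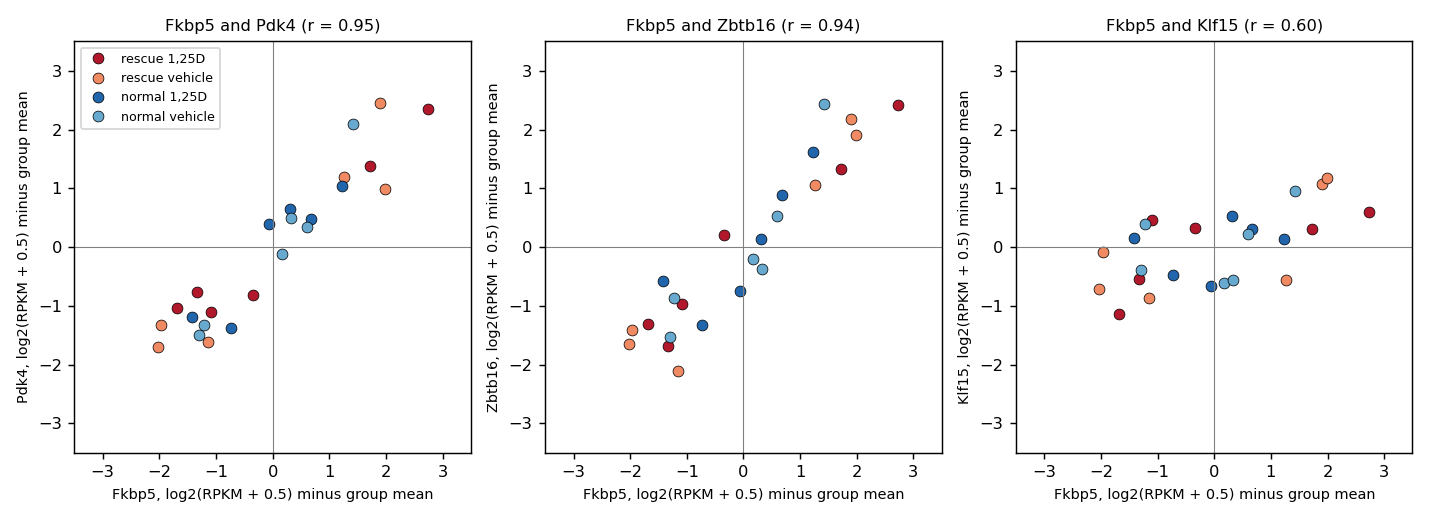
Deviation of Fkbp5 from its group mean (x axis, log2 units) against that of Pdk4, Zbtb16 and Klf15 (y axes, log2 units), 1 point per library, coloured by group. Points of all 4 groups lie along 1 rising line for Pdk4 (r = 0.95) and Zbtb16 (r = 0.94) and scatter more widely for Klf15 (r = 0.60).

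Promoter sequence was taken from RefSeq (build GRCm38.p6, while the deposited tables were made on mm9) for windows of 250 bases before to 50 after each transcript start. Windows were found for 7 of the 9 genes, 14 in all, and not for Zbtb16 and Angptl4. They were searched on both strands for the 2 parts of the glucocorticoid receptor's motif, AGAACA and TGTTCT, and for both in that order with 3 bases between them. The exact paired element was present in 1 of the 6 windows of Sgk1, starting 189 bases before the transcript start, and in 3 of 32851 windows of all genes (0.00913%). A second window of Sgk1 held it with 2 mismatches, a degree of match that 1.84% of all windows reach, and the other 6 genes had no such match in these windows. Either part alone was found in 19.0% of all windows, in 1 of 3 windows of Tsc22d3 and in 3 of 6 of Sgk1. CACCC or GGGTG, a core bound by Kruppel-like factors, was found in 57.5% of all windows and 4 times in that of Pdk4. The Sgk1 window is shown because it holds the exact element, in capitals. The windows of Fkbp5 and Pdk4 are shown because, among genes of mean 1 RPKM or more, Pdk4 was most like Fkbp5 across libraries. Those of Fkbp5 and Pdk4 held neither part of the motif, which says only that these letters are not in these windows.
Sgk1, chr10:21993640-21993939, plus strand: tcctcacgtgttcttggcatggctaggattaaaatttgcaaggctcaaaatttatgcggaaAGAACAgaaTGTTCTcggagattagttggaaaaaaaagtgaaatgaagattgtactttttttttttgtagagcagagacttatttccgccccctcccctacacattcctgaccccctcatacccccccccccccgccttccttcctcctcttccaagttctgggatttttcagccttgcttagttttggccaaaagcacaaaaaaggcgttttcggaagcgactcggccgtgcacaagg
Fkbp5, chr17:28486100-28486399, minus strand: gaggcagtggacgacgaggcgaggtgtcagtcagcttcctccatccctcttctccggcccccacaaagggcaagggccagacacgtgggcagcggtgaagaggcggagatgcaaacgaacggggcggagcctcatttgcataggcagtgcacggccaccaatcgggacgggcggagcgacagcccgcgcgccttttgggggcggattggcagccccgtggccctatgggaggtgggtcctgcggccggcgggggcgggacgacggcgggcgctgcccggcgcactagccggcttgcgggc
Pdk4, chr6:5496229-5496528, minus strand: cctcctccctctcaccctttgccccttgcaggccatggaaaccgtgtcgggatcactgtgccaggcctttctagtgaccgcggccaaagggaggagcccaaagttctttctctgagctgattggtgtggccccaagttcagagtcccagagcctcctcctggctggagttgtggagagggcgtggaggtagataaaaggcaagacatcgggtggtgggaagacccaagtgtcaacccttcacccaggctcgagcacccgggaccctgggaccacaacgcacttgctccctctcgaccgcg

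On the rescue diet no member passed the test for 1,25D against vehicle (limma over 20006 genes, Benjamini-Hochberg adjusted p under 0.05). Of all genes 0.145% were called there. No member had an unadjusted p under 0.05, while 966 of all 20006 genes (4.83%) did. All 9 estimates were below 0, and they ran from -1.11 for Sgk1 to -0.03 for Klf9 in log2(RPKM + 0.5) units, in which changes of weakly expressed genes come out too small. The 9 estimates share the same libraries and the same few high ones, so they are not 9 separate observations. Each log2 difference is between group means of log2 values and so is not the log of the ratio of the average RPKM given beside it. Sgk1 averaged 51.9 ± 89.3 RPKM in rescue 1,25D libraries and 67.1 ± 69.1 RPKM in rescue vehicle libraries (SD, n = 6 each), with a standard error of 0.84 for its log2 difference and an adjusted p of 0.878. Fkbp5 averaged 43.9 ± 57.1 RPKM in rescue 1,25D libraries and 85.0 ± 81.5 RPKM in rescue vehicle libraries, a log2 difference of -1.06 (SE 0.78, 95% interval -2.67 to 0.55, limma adjusted p = 0.878). Klf9 averaged 29.6 ± 10.6 RPKM in rescue 1,25D libraries and 30.2 ± 9.75 RPKM in rescue vehicle libraries, and its estimate turned positive when 1 of 5 single libraries was left out.

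On the normal diet no member passed for 1,25D against vehicle either, where 1.84% of all genes were called. None of the 9 genes had an unadjusted p under 0.05 (limma), while 2393 of all 20006 genes (12%) did. Estimates ran from -0.45 for Klf15 (SE 0.37) to 0.89 for Angptl4 (SE 0.75, limma adjusted p = 0.790). Angptl4 averaged 7.24 ± 3.63 RPKM in normal 1,25D libraries and 5.55 ± 7.64 RPKM in normal vehicle libraries (SD, n = 6 each). Fkbp5 averaged 80.8 ± 49.1 RPKM in normal 1,25D libraries and 61.0 ± 41.7 RPKM in normal vehicle libraries, a log2 difference of 0.46 (SE 0.78, 95% interval -1.15 to 2.07, limma adjusted p = 0.955). That estimate was -0.15 with the exocrine pancreas score as a covariate and -0.21 with the smooth muscle score. The 19 pancreas markers other than Zg16 summed to 30.6 to 18831 RPKM in normal 1,25D libraries and 2335 to 89855 RPKM in normal vehicle libraries, with a median log2 difference of -3.54 and none called. The 14 enterocyte markers summed to 6612 to 11547 RPKM in normal 1,25D libraries and 2822 to 5589 RPKM in normal vehicle libraries. The part of these markers in the estimates of the 9 genes was not tested beyond those covariates.

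Over the mean of both diets, 0 of 9 genes passed for 1,25D against vehicle, where 1.28% of all genes were called. The change with 1,25D on the rescue diet minus that on the normal diet was below 0 for all 9 genes, and none passed, where 0.005% of all genes were called. It was -1.88 for Angptl4 (SE 1.07, limma adjusted p = 0.827), -1.52 for Fkbp5 (SE 1.11, 95% interval -3.79 to 0.76) and -0.01 for Klf15, which changed sign with the library left out. These 9 estimates share the same 24 libraries and the same few high ones, so they are not 9 separate observations. In the same comparison the 14 enterocyte markers had a median of -1.21 and the 20 pancreas markers one of 3.09, with 0 called in either list, and on the rescue diet alone their medians were -0.42 and -0.33. Their part in the estimates of the 9 genes was not tested beyond the covariates.

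**Figure D5:**
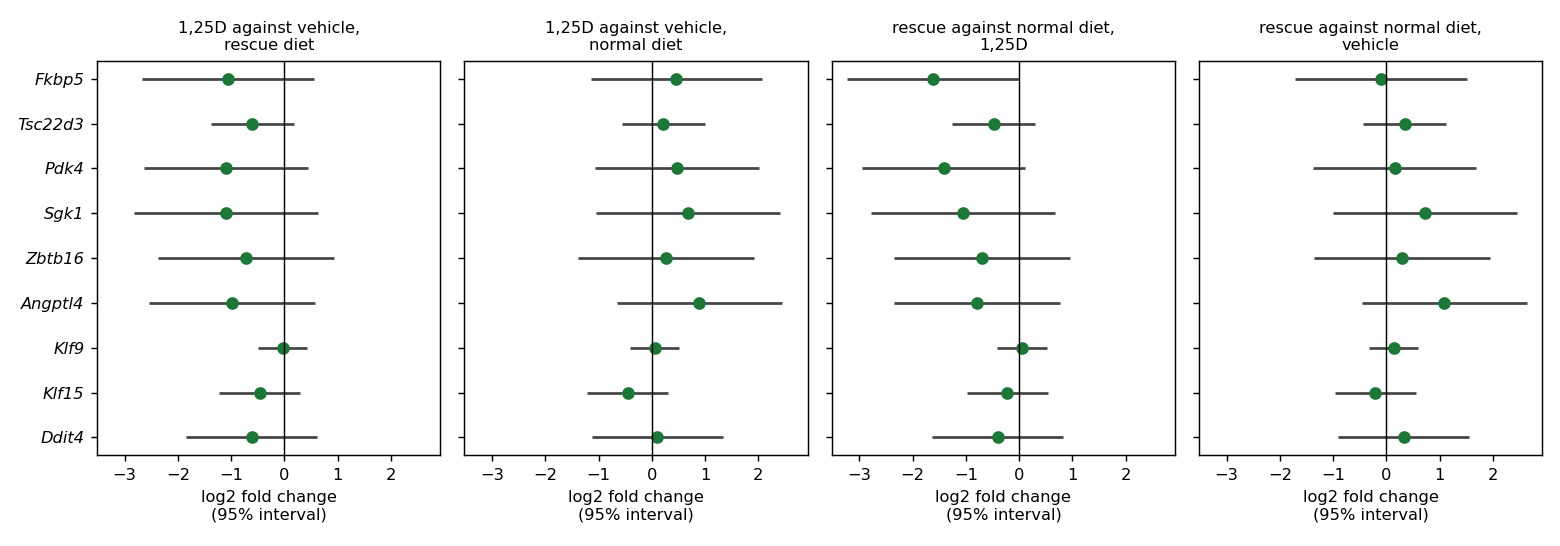
Log2 fold change (x axis) of each gene with its 95% interval from limma, for 1,25D against vehicle on each diet and for rescue against normal diet under each injection, with a line at 0. Every interval spans 0 but that of Fkbp5 for rescue against normal diet under 1,25D, which ends at -0.01, and Klf9 has the shortest intervals.

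Between diets under 1,25D no member passed, where 0.01% of all genes were called (limma) and 1676 genes (8.38%) had an unadjusted p under 0.05. Fkbp5 was the only member with an unadjusted p under 0.05, with a log2 difference of -1.62 between the group means of log2 values (SE 0.78, unadjusted p = 0.0491, limma adjusted p = 0.595). It passed at 1 of the 39 alternative settings, in which libraries were weighted by how far they deviated (log2 difference -2.40, limma adjusted p = 0.0305), under which 1287 genes were called. Over all 39 settings its adjusted p ran from 0.0305 to 0.953. Klf9, the highest, had a log2 difference of 0.05, and it was -0.040 under median-of-ratios scaling. The median of all genes was 0.12 in this comparison as deposited, 0.01 after quantile normalization and 0.04 under median-of-ratios scaling, so Klf9 lay below the median of all genes at the deposited scaling. Between diets under vehicle no member passed and none had an unadjusted p under 0.05, where 0% of all genes were called (limma) and 1437 genes had an unadjusted p under 0.05. There the estimates ran from -0.21 for Klf15 to 1.08 for Angptl4 (SE 0.75), with Fkbp5 at -0.10 (SE 0.78, 95% interval -1.71 to 1.51). Over the mean of both injections 0 of 9 passed for rescue against normal diet, where 0% of all genes were called (limma) and 1900 genes had an unadjusted p under 0.05. As a ratio of 1,25D to vehicle, the 95% interval of Fkbp5 ran from 0.157 to 1.47 on the rescue diet and from 0.450 to 4.199 on the normal diet.

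The genes whose pattern was most like that of Fkbp5 were found by the Pearson correlation of log2 values minus group means, over 24 libraries and among the 15722 genes whose mean was at least 1 RPKM. They were Pdk4 (0.945), Cyp27a1 (0.942), Acot2 (0.936), Zbtb16 (0.936), Angptl4 (0.935) and G6pc (0.933). Cyp27a1 encodes a sterol hydroxylase, Acot2 a mitochondrial acyl-CoA thioesterase and G6pc the last enzyme of glucose production. G6pc ran from 1.01 to 100.5 RPKM over the 24 libraries. For Pdk4 the 6 nearest were Angptl4 (0.968), Pck1 (0.964), G6pc (0.954), Fkbp5 (0.945), Ppara (0.937) and Nr1i2 (0.936). Pck1, which encodes the entry enzyme of glucose production, ran from 0.480 to 103 RPKM. The other members ranked lower in likeness to Fkbp5, with Tsc22d3 at rank 36, Sgk1 at 54, Ddit4 at 63, Klf9 at 188 and Klf15 at 621.

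Other genes of the same pathways, in lists written for this purpose, were set against Fkbp5 in the same way after the values had been seen, with permutation tests adjusted over 233 genes. The median r over all 15722 genes of mean 1 RPKM or more was 0.01. There r with Fkbp5 ran from -0.92 to 0.945, so genes varied with it in both directions. The share of all genes that would pass is not given here, so the counts below cannot be set against it. Over these lists 73 genes passed by r and 67 by rho, 10 by r alone and 4 by rho alone, and a gene said to pass did so by r. Of 23 other glucocorticoid receptor targets 14 were positively correlated past the threshold by r and 0 negatively, with a median r of 0.58. By rho 10 of the 14 passed, and Nfkbia (adjusted p = 0.101), Per1 (0.074), Cdkn1a (0.0967) and Dusp1 (0.0567) did not. They included Glul (glutamine synthetase, r = 0.924, rho = 0.931), Hif3a (r = 0.924, rho = 0.919) and the metallothioneins Mt2 (r = 0.908, rho = 0.929) and Mt1 (r = 0.878, rho = 0.917), each with an adjusted p of 0.000212. Mt2 ran from 0.435 to 42.2 RPKM. Of 9 that did not pass, Anxa1 (r = -0.44) and Cebpb (r = 0.02) are also textbook targets.

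Of 30 genes of fasting and of the PPAR and FOXO factors 16 passed with a positive r and 1, Trib1, with a negative r, and the median r was 0.56. By rho 16 passed with a positive sign and 0 with a negative one: Irs2 (adjusted p for rho = 0.158) and Trib1 (0.0725) were lost, and Vnn1 was gained (0.0455). Examples are the PPAR-alpha receptor gene itself, Ppara (r = 0.929, rho = 0.896), and Pck1 (r = 0.924, rho = 0.896). Of 15 steroid receptors, chaperones and steroid enzymes 3 passed with a positive r and 5 with a negative r. The 3 were Nr5a2, a receptor that drives intestinal steroid synthesis in mice (r = 0.704), Hsd11b2, which inactivates corticosterone (r = 0.668), and Star (r = 0.559). The 5 were Stip1 (r = -0.773), Hsp90aa1 (r = -0.759), Fkbp4 (r = -0.694), Hspa8 (r = -0.636), which take part in chaperoning the receptor, and the receptor gene Nr3c1 (r = -0.566, rho = -0.517), whose rho did not pass (adjusted p = 0.0639).

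Relatives and partners of the members were set against Fkbp5 too. Among 12 other Kruppel-like factors Klf11 passed with a positive r (0.786) and Klf16 with a negative one (-0.684). Among 10 genes of the pyruvate dehydrogenase complex, its kinases and phosphatases, Pdha1 passed (r = 0.629) the kinases Pdk1, Pdk2 and Pdk3 did not, and Pdp2 passed by rho alone (rho = -0.557, adjusted p = 0.0315). Among 9 angiopoietin-like proteins and partners of lipoprotein lipase 4 passed with a negative r, among them Lpl, the enzyme that Angptl4 inhibits (r = -0.739). Among 10 kinases and sodium transport genes linked to SGK1, Slc26a3 (r = 0.862) and Ndrg1 (r = 0.61) passed with a positive r and Slc9a3r2 (r = -0.58) with a negative one, by r alone (adjusted p for rho = 0.0555). Among 16 genes of the DDIT4 pathway and of stress responses Ddit3 (r = -0.667) passed with a negative r by both measures and Chac1 by r alone (r = -0.499, adjusted p for rho = 0.0696). Among 13 clock genes Cry2 (r = 0.796) passed by both measures and Npas2 by r alone (r = 0.61, adjusted p for rho = 0.0692), and 0 of 11 relatives of Tsc22d3, Zbtb16 and Fkbp5 passed.

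Markers of some other cell types, though not of all those listed, moved with the same libraries. Of 11 smooth muscle markers 10 were negatively correlated with Fkbp5 past the threshold by r and 11 by rho (r from -0.78 to -0.55 over all 11), none was at 0 in any library, and their sum was 156 to 663 RPKM in rescue 1,25D, 142 to 608 RPKM in rescue vehicle, 193 to 425 RPKM in normal 1,25D and 250.9 to 895 RPKM in normal vehicle libraries. Negative correlations also passed for 4 of 8 endothelial and 5 of 14 blood and leukocyte markers and for the enterocyte peptidase Anpep, 1 of 14 enterocyte markers. Anpep (r = -0.63) went against most of its list. Over the 14 enterocyte markers the median r was 0.33 and the highest 0.54, and none passed with a positive r. None passed among 20 pancreas, 8 adipocyte and 9 early response genes by r, and 1 early response gene, Egr2, passed by rho (0.582, adjusted p = 0.0412).

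Each member was also set against summary scores of these lists (mean log2(RPKM + 0.5)) and against relative depth, 45 tests in all. Against the smooth muscle score r ran from -0.72 for Fkbp5 (rho = -0.71, p = 0.00111, adjusted p = 0.0297, r = -0.66 without the 2 farthest libraries) to -0.36 for Klf15, and 5 of 9 genes passed by r and 3 by rho. That count was 0 without any one of replicates 2 and 6 of rescue 1,25D, 3 and 6 of rescue vehicle, 1 of normal 1,25D and 1 of normal vehicle. It was 3 without any one of replicate 3 of rescue 1,25D, 4 of rescue vehicle, 2 and 6 of normal 1,25D, and 3, 4 and 6 of normal vehicle. Against the pancreas, enterocyte and early response scores and relative depth no member passed by r, and Sgk1 passed by rho against the enterocyte score (0.65, adjusted p = 0.0447). All 36 pairs of members still passed with the pancreas, smooth muscle and enterocyte scores and depth removed together, with a median r of 0.855. Endothelial and leukocyte scores were not removed, and the enterocyte markers differ in sign against Fkbp5. The part of cell types in this covariation was not tested beyond these scores.

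On the normal diet 20 of the 233 list genes were called (8.58%), all higher with 1,25D, where 1.84% of all genes were called. The lists were chosen with earlier results of these data known and include the 14 enterocyte markers, so these shares are no test of the pathways. Of the 368 genes called among all 20006, 357 were higher and 11 lower, so the direction was that of nearly all called genes, and the split was 231 higher and 93 lower under quantile normalization and 207 and 68 under median-of-ratios scaling. Of the 20 list genes 3 (Fbp1, Cyp4a10 and Ehhadh) were also correlated with Fkbp5 past the threshold. The 20 included Cyp2b10, a xenobiotic-metabolizing enzyme (63.2 ± 30.7 RPKM in normal 1,25D libraries and 5.62 ± 4.22 RPKM in normal vehicle libraries, log2 difference 3.61, limma adjusted p = 0.000588), and 5 of 30 fasting genes, Fbp1, Cyp4a10, Ppard, Ehhadh and Ucp2. Fbp1, an enzyme of glucose production, averaged 66.0 ± 18.9 RPKM in normal 1,25D libraries and 21.6 ± 9.84 RPKM in normal vehicle libraries (log2 difference 1.67, SE 0.31). Both phosphatases that reactivate pyruvate dehydrogenase, Pdp1 (log2 difference 0.63) and Pdp2 (0.61), were higher, as were Vegfa (0.97), the drug transporter gene Abcb1a (1.07), the clock genes Per2 (1.00), Tef (0.68) and Bhlhe40 (0.59), Junb (1.03), Pparg (0.87) and 5 of 14 enterocyte markers, Pdx1, Alpi, Cdh17, Lct and Fabp2. The count was 5 with the pancreas score as a covariate, 12 under quantile normalization and under median-of-ratios scaling, and 10 to 13 without any one of replicates 3, 4 and 6 of normal 1,25D and 1 and 2 of normal vehicle. On the rescue diet 1 list gene was called, Ppard, the gene of another PPAR receptor, with 22.7 ± 2.54 RPKM in rescue 1,25D libraries and 13.0 ± 3.81 RPKM in rescue vehicle libraries (log2 difference 0.82, SE 0.17, limma adjusted p = 0.0484), and 0.145% of all genes were called there. No list gene was called on the rescue diet at 30 of the 39 alternative settings, among them the replicate block, the pancreas, muscle and depth covariates and 20 of the 24 in which 1 library was left out (all but replicate 5 of rescue 1,25D, 2 of rescue vehicle, and 5 and 6 of normal vehicle). Within groups Ppard did not follow Fkbp5 (r = -0.21, adjusted p = 0.46).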

How the data were processed

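The values are RPKM as the authors deposited them, in 1 table for each library, per the file headers. Ribosomal RNA was depleted and directional libraries were made, per the labels' protocols. The submitters' processing notes name TopHat and mm9, and the labels name no batch. How RPKM was computed is not given in the sources used here. Of 30795 entries for 25410 symbols, those sharing a symbol were summed. Absolute depth is unknown; relative depth came from 3430 rarely detected entries.

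limma 3.58.1 (R 4.3.3) was run once on log2(RPKM + 0.5) of all 24 libraries with an intensity trend, two-sided, 1 mean per group, Benjamini-Hochberg over 20006 genes, and tested on simulated data. Correlations used 100000 permutations within groups (numpy 2.4.6, scipy 1.17.1, Python 3.11.15). Members and lists were chosen with earlier results of these data known; correlations of list genes with Fkbp5, tests of spread and some alternatives were added after seeing the values. Genes named besides the members were those called in a list, examples with the smallest p and the 6 most like Fkbp5 or Pdk4; some were picked after their values were seen. Reads of near-identical genes (Acot1 and Acot2, Mt1 and Mt2) may be shared. Alternatives covered pseudocount, filter, scaling, weights, block, covariates and each library left out.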

Additional observations from a re-analysis of the deposited data

Results flagged for a closer look

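In 3 of the 36 groups of 6 libraries examined (9 genes in 4 groups), 1 library lay farther from the rest than Dixon's critical ratio for 6 values allows on the log2(RPKM + 0.5) scale; chance flags about 1 in 20 groups. Ddit4 in rescue 1,25D had a gap ratio of 0.684, with replicate 6 at 38.5 RPKM and the next library at 6.86 RPKM. Ddit4 in normal vehicle had a ratio of 0.633, with replicate 4 at 44.6 RPKM and the next at 9.43 RPKM. Klf9 in normal vehicle had a ratio of 0.68, with replicate 4 at 51.7 RPKM and the next at 26.7 RPKM. Both libraries were also the highest of their group in the other members.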

How the results depend on the processing

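Over 39 alternative settings and 63 fold changes of members, 140 of 2430 values had the opposite sign to the reported one and 1 was called. Fkbp5 for 1,25D on the normal diet was -0.15 with the pancreas and -0.21 with the smooth muscle covariate, and for diet under vehicle it was 0.18 with the depth covariate and -0.50 to 0.31 over single libraries left out. Klf9 for diet under 1,25D was -0.040 with median-of-ratios scaling, -0.12 with library weights and -0.11 to 0.13 over libraries left out, and for 1,25D on the rescue diet -0.19 to 0.10. Klf15 in the difference between the diets was 0.040 with median-of-ratios scaling, 0.18 with the muscle covariate and -0.21 to 0.22 over libraries left out. The cause was not tested. Called members for diet under 1,25D were 1 with library weights. Genes of the lists called on the normal diet (20) were 12 with quantile and with median-of-ratios scaling, 5 with the pancreas covariate and 10 to 22 over libraries left out. Members that passed against the scores (5) were 3 without replicate 4 of rescue 1,25D and replicate 6 of normal vehicle together and 0 to 5 over libraries left out. Over all genes, calls under the alternatives ran from 139 to 567 for 1,25D on the normal diet, 11 to 90 on the rescue diet, 0 to 61 for the difference between the diets and 0 to 1287 for diet under 1,25D. Same-numbered libraries of 2 groups correlated between -0.436 and 0.478, which cannot settle pairing, because differently numbered libraries were not set beside them. The labels do not say that the numbers pair libraries, so they were not taken as pairs. With the replicate number as a block 0 members were called in each comparison and 17 list genes on the normal diet. Depth is unknown in reads, which limits what can be said of low values such as those of Klf15.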
